A study of Mus musculus with 4 samples.

Results

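The NMDA receptor is encoded in the mouse by 7 genes, Grin1, Grin2a, Grin2b, Grin2c, Grin2d, Grin3a and Grin3b, which were taken by symbol from the 32285 genes of the deposited matrices. All 7 were present. The data are single-nucleus RNA-seq of the cortex of C57BL/6J mice, in which both conditions were of the same strain, age and injection schedule. Mice of the risperidone group received 4 mg/kg of this second-generation antipsychotic intraperitoneally each day from postnatal day 22 for 21 days, and mice of the saline group received saline. The drug was dissolved in DMSO and then diluted in saline, whereas the description of the control group names saline only. After a washout without the drug, right hemicortices were taken at postnatal day 90. Tissue of male and female mice was combined into 1 pool per condition, from which 2 Chromium lanes were loaded. Since lanes of a pool are repeats of the run and not other animals, no test was possible and no p-value or standard error is given. The comparison answers whether transcripts of the receptor differed in adult cortex after the adolescent treatment, in these pools.

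The NMDA receptor is a glutamate-gated cation channel of 4 subunits that opens when glutamate and a co-agonist, glycine or D-serine, are bound and the membrane is depolarised. GluN1, the product of Grin1, is obligatory and carries the co-agonist site. The GluN2 subunits (Grin2a to Grin2d) bind glutamate and set the channel's kinetics and block by magnesium, and the GluN3 subunits (Grin3a and Grin3b) bind glycine and lower calcium entry. In the developing forebrain Grin2b is expressed early and Grin2a is added during postnatal maturation, so the relation between the GluN2A and GluN2B genes is a common readout of receptor maturation.

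The members differ widely in the length of DNA they span, and reads in introns were counted, so that counts of different members are not compared with each other. On GRCm38, Grin2b lies on chromosome 6 (positions 135713233 to 136173511, 460.3 kb, minus strand) and Grin2a on chromosome 16 (9567898 to 9995560, 427.7 kb, minus strand). Grin3a spans 184.1 kb of chromosome 4 (49661611 to 49845744, minus strand), Grin2d 46.5 kb of chromosome 7 (45831883 to 45878378, minus strand) and Grin1 28.0 kb of chromosome 2 (25291181 to 25319187, minus strand). The shortest were Grin2c with 18.1 kb on chromosome 11 (115249169 to 115267243, minus strand) and Grin3b with 6.5 kb on chromosome 10 (79970715 to 79977190, plus strand). Each value covers the whole gene and does not separate exons, introns or isoforms. Grin1os lies within Grin1, Gm14329 and Gm14330 within Grin2b, and Gm26653, Gm45441, Kdelr1 and Tmem259 overlap Grin2b, Grin2d, Grin2d and Grin3b, each on the opposite strand, and Ppp3r2 lies within Grin3a on the same strand, so that values of these pairs are uncertain where counting could divide reads between them. Counts were given per gene identifier, as ENSMUSG00000026959 for Grin1, ENSMUSG00000059003 for Grin2a and ENSMUSG00000030209 for Grin2b.

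The files listed 29536 and 29986 nuclei for the saline lanes against 25983 and 23450 for those of risperidone, of which 96553 in all were kept. The kept nuclei had medians of 3015.5 and 3737 unique molecular identifiers (UMIs, 1 per captured transcript) in the saline lanes against 5424 and 7447 in the risperidone lanes, so that depth differed between the conditions in the same direction as the treatment. The smallest nucleus listed had 1364 and 1630 UMIs in the saline lanes against 500 in either risperidone lane. Nuclei of fewer UMIs than those of the saline lanes thus came from the risperidone lanes alone. Microglia, for example, held 13 and 10 nuclei in the saline lanes against 79 and 82 in those of risperidone. Any pair of lanes shared 160 to 221 barcodes. Nuclei were clustered without the 7 members and named by fixed markers, which makes each name a likeness to a type. The suffix -like is left out below except for the claustrum-like neurons. The class of glutamatergic neurons held 58464 nuclei, parvalbumin interneurons (PV-INs) 2706 and somatostatin interneurons (Sst-INs) 2300. The glutamatergic class was divided into layer types of intratelencephalic (IT), extratelencephalic (ET), near-projecting (NP) and corticothalamic (CT) neurons, and 6 of its 14 clusters, with 11560 nuclei, were given no layer type. Those 6 held 25.4% and 25.7% of the class in the saline lanes against 12.6% and 12.8% in those of risperidone. With the striatal, interneuron, glial and vascular types there were 18 groups, and 7.56 to 11% of the nuclei of a lane had no class. Markers of each named class were detected in it, and 0 of the 8 glutamatergic, 8 PV-IN and 8 Sst-IN markers were at 0 in a lane of their own class.

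Over all nuclei passing the filters, the matrices held 1562004 UMIs of Grin2a, 1382201 of Grin2b, 204365 of Grin1, 55083 of Grin3a, 8989 of Grin2c, 6154 of Grin2d and 127 of Grin3b. The precision of the values below follows from these counts. It is high for Grin1, Grin2a and Grin2b in every neuronal type, and Grin3b was too rare for any comparison. Levels are given as CPM, that is UMIs of the gene scaled to a fixed total of UMIs of the class in a lane. Intervals are exact at 95% and cover counting error only, not the spread between animals.

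Grin1, the obligatory subunit, was found in all 18 groups and varied little among the neurons. Its level was 382 CPM in L5 ET neurons (417 and 430 in the saline lanes, 357 and 354 in the risperidone lanes), 377 in L6 CT neurons, 353 in L4/5 IT neurons and 351 in L2/3 IT neurons. Interneurons were lower, with 301 CPM in Sst-INs, 276 in Lamp5 interneurons, 269 in PV-INs and 241 in Vip interneurons. The order was shallow. Of the 17 pairs of neighbouring groups, 10 had overlapping lanes in the saline pool and 11 in the risperidone pool.

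Grin2a, which encodes the subunit of faster receptors that accumulates after birth, spread much more widely. Lamp5 interneurons had the highest level, with 4385 and 5020 CPM in the saline lanes against 3805 and 3925 in those of risperidone. They were followed by L5 ET neurons with 2918 CPM over all lanes and L2/3 IT neurons with 2876. The other layer types lay between 2498 (L6 CT) and 2618 (L5/6 NP and L4/5 IT), Sst-INs had 2345 and claustrum-like neurons 1754. PV-INs were lower at 1521 CPM, with 1864 and 1475 in the saline lanes against 1376 and 1434 in those of risperidone. Vip interneurons had the lowest level of the neurons, with 1198, 1087, 985 and 856 CPM in the same order of lanes. RNA of other cells, described below, would give 68.4%, 91.3%, 36.2% and 70.9% of these UMIs. The lanes of Lamp5 and Vip interneurons lay far from each other, with no overlap, whereas neighbours in the order overlapped in 6 of 17 pairs in the saline pool and 9 of 17 in the risperidone pool.

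Grin2b, which encodes the slower GluN2B subunit, was more even over the same neurons. It ran from 1685 CPM in L5/6 NP neurons to 2693 in L2/3 IT neurons. Lamp5 interneurons, highest for Grin2a, had 1763 CPM of Grin2b, and Vip interneurons, lowest for Grin2a, had 1957. PV-INs had 1847 and Sst-INs 1947 CPM. Neighbours overlapped in 7 of 17 pairs in the saline pool and 8 of 17 in the risperidone pool.

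**Figure D1:**
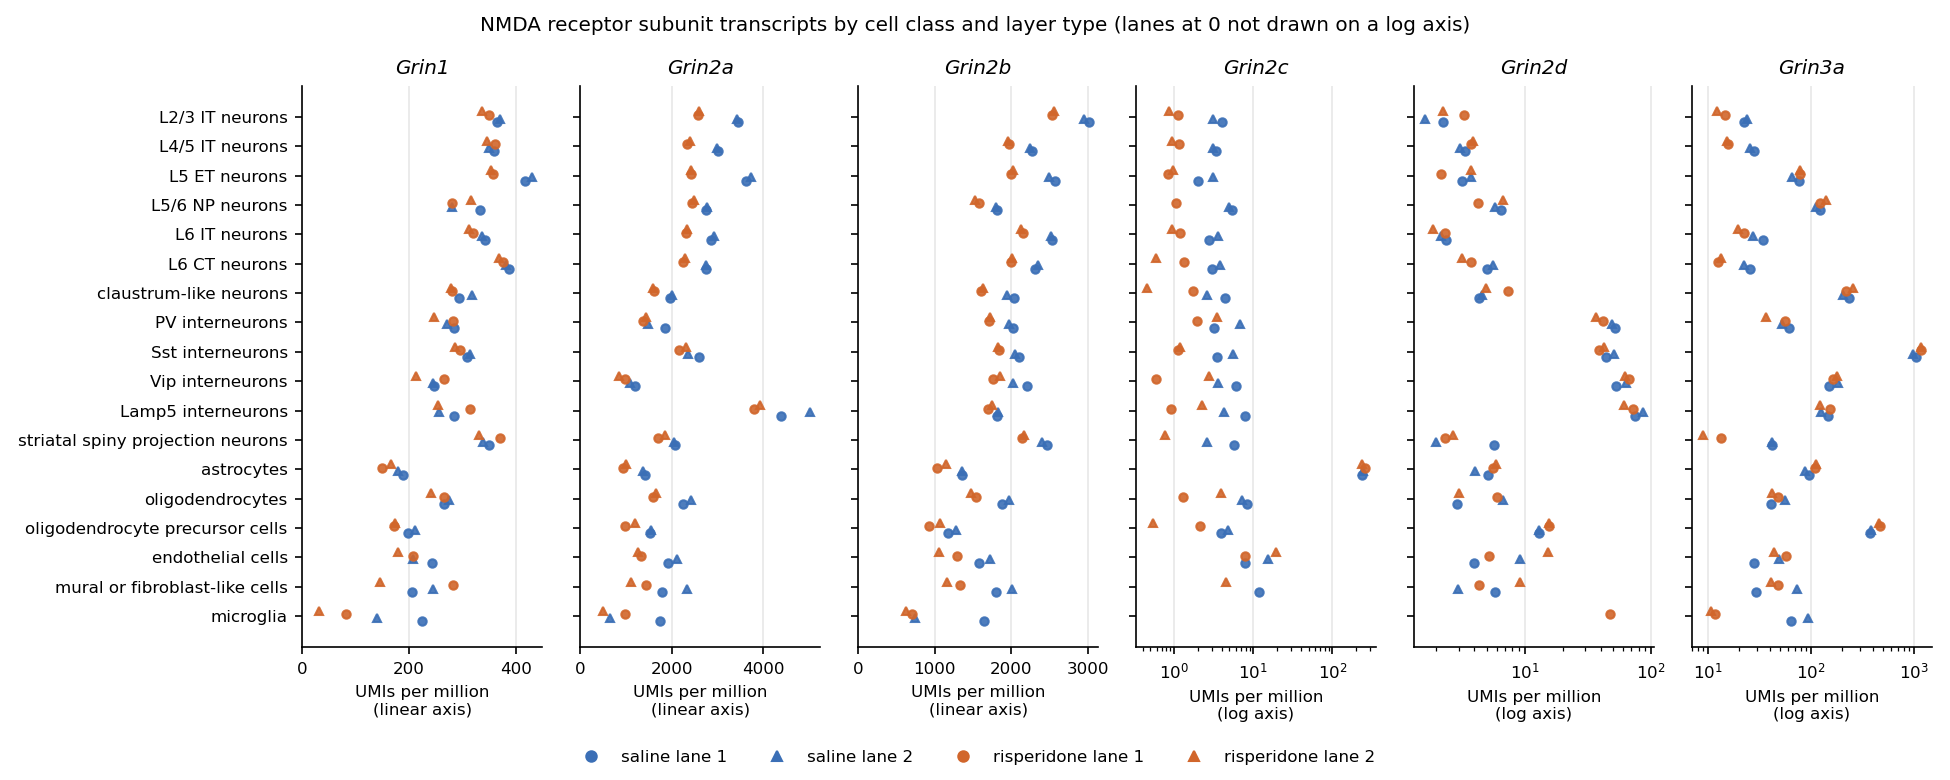
Level in CPM of the class (x axis) for 6 members in 18 groups (y axis), with 1 point per lane, saline in blue and risperidone in orange. Grin2a separates Lamp5 interneurons (3805 to 5020 CPM) from Vip interneurons (856 to 1198 CPM), Grin2c stands out in astrocytes, Grin2d in the 4 interneuron types and Grin3a in Sst-INs and oligodendrocyte precursor cells; lanes at 0 are not drawn on the log axes.

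The share of Grin2a in the sum of Grin2a and Grin2b UMIs sets the 2 long genes against each other within a lane and can be compared between classes, since the lengths of the genes cancel. Glutamatergic neurons had shares of 54.8% and 55.0% in the saline lanes against 52.2% and 52.4% in those of risperidone. Lamp5 interneurons had 70.8% and 73.4% in the saline lanes against 69.1% in either risperidone lane, the highest of all groups. Vip interneurons had 35.2%, 34.9%, 35.9% and 31.6%, the lowest of the neurons. PV-INs lay between them with 48.0%, 42.8%, 44.6% and 45.3%, as did Sst-INs with 55.2%, 53.3%, 54.1% and 55.9%. The interneuron types thus spanned a wider range than the layer types of glutamatergic neurons, which ran from 49.8% in claustrum-like neurons to 60.8% in L5/6 NP neurons over all lanes. With the estimated RNA of other cells taken out, as described below, the share was 74.3% in Lamp5 interneurons, 41.7% in PV-INs and 19.3% in Vip interneurons. Vip interneurons stayed lowest of the neurons in this setting, but the size of their share depended on it. Such RNA would give 36.2 to 91.3% of their Grin2a UMIs by lane, so that the value of 19.3% is uncertain.

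Within an interneuron type the share depended on the cluster. PV-INs fell into 2 clusters, of which that led by 6330411D24Rik and Eya4 had a share of 53.0% over all lanes and that led by Syt2 and Myo1e 21.9%. In the latter the shares were 25%, 22.0%, 23.0% and 19.2% by lane, and the Grin2a level was 528 CPM against 2060 in the former. Their Grin2b levels were close, with 1883 and 1827 CPM. The cluster of low Grin2a held 23.0% and 30.8% of the PV-INs in the saline lanes against 31.6% and 34.9% in those of risperidone, while the share in the other cluster was 53.4%, 50.7%, 52.3% and 55.2%. Saline lane 2 thus had a lower share than saline lane 1 within both clusters as well as in the class. Among Lamp5 interneurons, the cluster led by Pde11a and Egfr had 74.9% and that led by Ndnf and Egfr 59.8%, and among Sst-INs the shares ran from 43.8% (9630002D21Rik and Lypd6) to 63.2% (Lama4 and Unc13c). Over the 17 of 18 GABAergic clusters that held nuclei in every lane, the Grin2a level ran from 296 to 5915 CPM and that of Grin2b from 1492 to 2498 CPM.

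**Figure D2:**
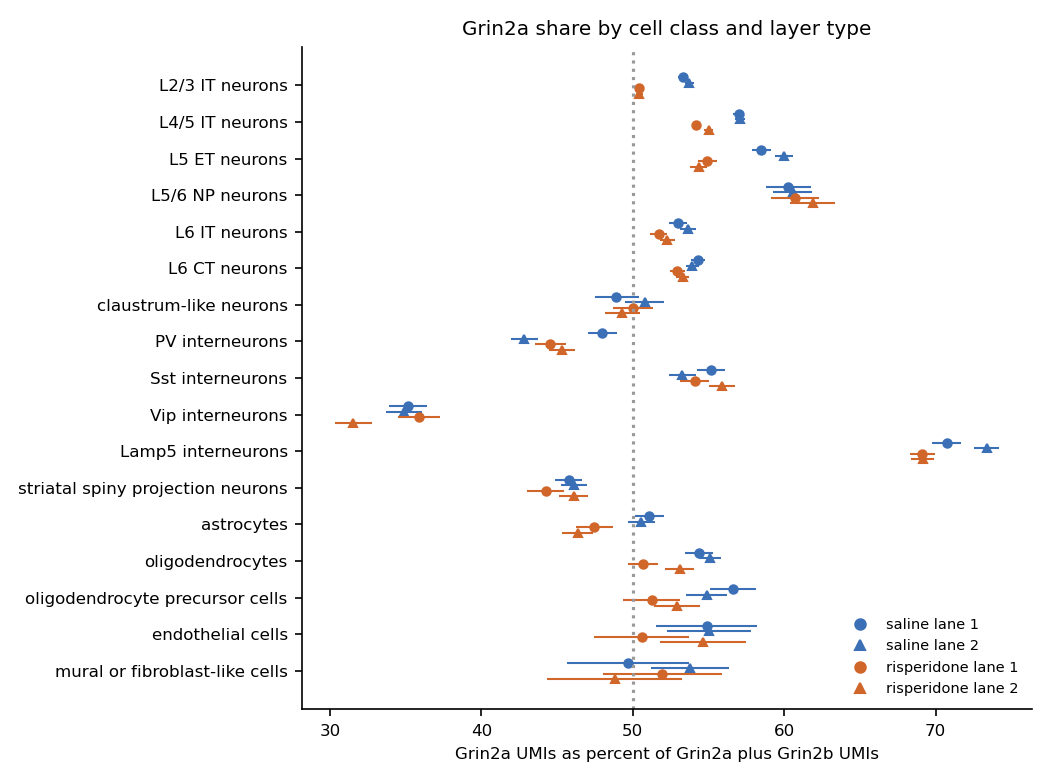
Percent of Grin2a in the sum of Grin2a and Grin2b UMIs (x axis) by group (y axis), 1 point per lane with its exact 95% binomial interval. Lamp5 interneurons lie highest at 69.1 to 73.4% and Vip interneurons lowest of the neurons at 31.6 to 35.9%, while glutamatergic layer types stay between 48.9% and 61.9%.

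Grin2c, a GluN2 gene best known from cerebellum and thalamus and from astrocytes, was an astrocyte transcript in these data. Astrocytes had 236 and 245 CPM in the saline lanes against 260 and 239 in those of risperidone. No other group passed 13.5 CPM over all lanes, and that value, in endothelial cells, rested on 20 UMIs. In glutamatergic neurons Grin2c was at 3.69, 3.48, 1.20 and 0.81 CPM. These neurons also held 3.54%, 3.33%, 2.52% and 2.63% of the summed level that 8 astrocyte markers had in astrocytes.

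Grin2d, which encodes the subunit with the slowest decay, was a transcript of interneurons. Lamp5 interneurons had 72.0 CPM over all lanes, Vip interneurons 61.8, PV-INs 44.1 and Sst-INs 44.0. The glutamatergic layer types had 2.16 to 5.83 CPM and oligodendrocyte precursor cells 14.3. The lanes of the interneuron types (36.9 to 87.0 CPM) lay above those of all the glutamatergic types (1.62 to 7.43 CPM).

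Grin3a, which encodes a glycine-binding subunit that dampens calcium entry, was concentrated in a few groups. Sst-INs had 1055 and 979 CPM in the saline lanes against 1178 and 1181 in those of risperidone. Oligodendrocyte precursor cells, which respond to glutamate and give rise to myelinating cells, were second with 375, 385, 473 and 464 CPM. Claustrum-like neurons followed with 232 CPM over all lanes, Vip interneurons with 171, Lamp5 interneurons with 137 and L5/6 NP neurons with 124. L5 ET neurons had 75.8 CPM and PV-INs 50.4. L6 IT, L4/5 IT, L6 CT and L2/3 IT neurons were lowest with 25.1, 20, 18 and 16.7 CPM. Grin3a was not among the markers used to name Sst-INs or among the genes used for clustering.

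Clusters within the types set the level further. Sst-INs led by Lama4 and Unc13c had 1230 CPM of Grin3a and those led by 9630002D21Rik and Lypd6 1188, whereas those led by Tacr1 and L3mbtl4 had 692. In Vip interneurons 1 cluster of 271 nuclei, led by Gm39185 and Rgs12, had 731 CPM while the other 2 had 102 and 17.7. Grin3b, the other glycine-binding subunit, known mainly from motor neurons, had at most 0.60 CPM in any group. L5/6 NP neurons, endothelial cells, microglia and mural or fibroblast-like cells held 0 UMIs, which in L5/6 NP neurons allows at most 0.90 CPM.

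Transcripts of Grin1, Grin2a and Grin2b were also counted in glial nuclei, and their levels there were set against those of 8 markers of glutamatergic neurons, which glia should lack. In astrocytes the 8 markers had medians of 50.7%, 49.2%, 41.5% and 48.0% of their level in glutamatergic neurons in the 4 lanes. Grin2a had 45.3%, 44.0%, 39.2% and 41.2%, and Grin1 and Grin2b also lay within the range of the markers. In oligodendrocytes the medians were 74.1%, 77.4%, 69.5% and 69.4% and Grin2a had 71.4%, 76.9%, 66.7% and 69.1%. In oligodendrocytes and oligodendrocyte precursor cells all 3 also lay within the range of the markers in every lane. The estimated RNA of other cells, described below, would give 77.5 to 105% of their UMIs in astrocytes and 93.5 to 129% in oligodendrocyte precursor cells, against 71.2 to 84.5% in oligodendrocytes. Whether any of these counts came from the glia themselves was not tested. Grin2c in astrocytes, at 6393% to 29437%, and Grin3a in oligodendrocyte precursor cells, at 844% to 1524%, lay far outside the range of the neuronal markers. Grin3a in astrocytes had 214% and 209% in the saline lanes against 353% and 359% in those of risperidone.

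**Figure D3:**
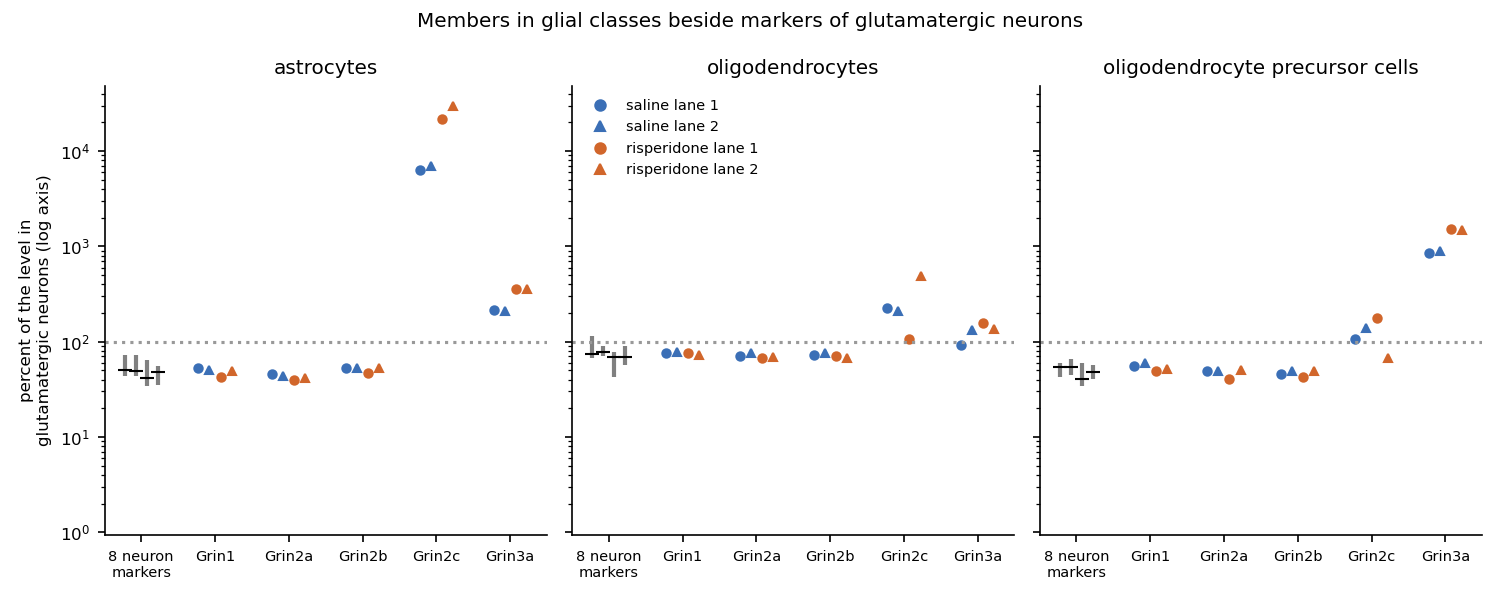
Level in 3 glial classes as percent of the level in glutamatergic neurons (y axis, log scale) by lane, for 8 markers of glutamatergic neurons (range and median) and 5 members. Grin1, Grin2a and Grin2b fall with the markers, between 39.2% and 77.4%, and Grin2c in astrocytes and Grin3a in oligodendrocyte precursor cells lie at 6393% or more and 844% or more.

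In glutamatergic neurons 1 of the 4 members with a level to compare, Grin3a, was called lower in the risperidone pool, and the other 3 had negative differences that were not called. For this comparison the levels were scaled by edgeR's TMM factors, and a member was called lower or higher when its log2 difference (risperidone over saline) was at least 0.5 in size, its mean was at least 10 CPM and the lanes of the pools did not overlap. Grin2a had 3213 and 3258 scaled CPM in the saline lanes against 2284 and 2362 in those of risperidone. The lanes did not overlap, and the log2 difference was -0.48 (counting interval -0.48 to -0.47), with -0.51 to -0.44 over the 4 pairs of lanes. Grin2b had 2654, 2663, 2092 and 2142 scaled CPM and a log2 difference of -0.33 (-0.33 to -0.32). Grin1 had 361, 367, 333 and 329 scaled CPM and a log2 difference of -0.14 (-0.16 to -0.12). The difference thus was largest in size for Grin2a among these abundant members, and just short of the size of 0.5.

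Grin3a had 45.5 and 44.1 scaled CPM in the saline lanes against 29.8 and 30.9 in those of risperidone, a log2 difference of -0.56 (-0.61 to -0.51), and was called. The call was lost with the estimated RNA of other cells taken out (-0.44), where Grin2a was called in its place. The call was also lost on plain CPM (-0.47) and with classes set nucleus by nucleus (-0.46). The sign turned with clusters weighted equally (0.10), a setting in which a cluster of 84 nuclei counts as much as any other. Grin2c (3.78, 3.60, 1.15 and 0.80 scaled CPM) and Grin2d (3.73, 3.61, 3.63 and 3.19) were under the minimum of 10 CPM, as was Grin3b. Of the 4 members measured, 4 had both risperidone lanes under both saline lanes, where the background over 7194 genes was 47.2%. By the size rule 1 of 4 was lower, where the background was 7.34%, and 0 were higher, where it was 4.09%. The median of the 4 log2 differences was -0.40 against -0.02 over all genes. Leaving out risperidone lane 2 brought Grin2a past 0.5 as well.

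In PV-INs, fast-spiking cells that inhibit pyramidal neurons near the soma, 5 members were measured and none was called. Grin2a had 1909 and 1552 scaled CPM in the saline lanes against 1306 and 1401 in those of risperidone, with a log2 difference of -0.34 (-0.38 to -0.30). The 2 saline lanes differed by more than the nearest saline and risperidone lanes, and the difference was -0.14 without saline lane 1. Grin2d had 52.9, 51.7, 39.4 and 36.0 scaled CPM, a log2 difference of -0.48 (-0.72 to -0.24). Grin2b had -0.32 (-0.35 to -0.28), Grin3a -0.43 (-0.65 to -0.20) and Grin1 -0.19 (-0.29 to -0.10). Single lanes moved the last 2 values, Grin3a being -0.14 without risperidone lane 2 and -0.70 without risperidone lane 1, and Grin1 -0.11 without risperidone lane 2 and -0.13 without saline lane 1. The clusters also differed. Grin3a had -0.74 in that led by 6330411D24Rik and Eya4 and 0.01 in that led by Syt2 and Myo1e, and Grin2d -0.53 and -0.30. Over the class all 5 members had both risperidone lanes under both saline lanes, where the background over 7452 genes was 37.2%. By the size rule 0 of 5 were lower (background 9.97%) and 0 higher (6.62%), and their median was -0.34 against -0.03 over all genes. The size rule named Grin3a without saline lane 2 and 2 members without risperidone lane 1.

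In Sst-INs, which target the dendrites of pyramidal neurons, Grin3a went the other way. Its scaled CPM were 1074 and 1010 in the saline lanes against 1137 and 1166 in those of risperidone, a log2 difference of 0.15 (0.10 to 0.20). With RNA of other cells taken out, as described below, the difference of Grin3a was -0.02. This RNA would give 1.14 to 2.49% of its UMIs, and the setting also lowers the total of the class. Grin2a had 2637, 2420, 2089 and 2292 scaled CPM with a log2 difference of -0.19 (-0.23 to -0.16). Grin2b had -0.25 (-0.29 to -0.21), Grin2d -0.30 (-0.56 to -0.04) and Grin1 -0.17 (-0.27 to -0.08). Without saline lane 2, Grin2d had -0.16. Of the 5 members, 4 had both risperidone lanes below both saline lanes (background over 7317 genes, 34.0%) and 1 above (29.3%). By the size rule 0 were lower (7.61%) and 0 higher (6.40%), and the median was -0.19 against -0.02 over all genes.

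Among the layer types, L5 ET neurons, the thick-tufted cells that project to brainstem and spinal cord, had the largest difference of Grin2a. Their scaled CPM were 3708 and 3824 in the saline lanes against 2355 and 2383 in those of risperidone, a log2 difference of -0.67 (-0.69 to -0.65), which was called. The background of lower calls in L5 ET neurons was 10.3%. Grin1 (-0.32) and Grin2b (-0.39) also had their largest size among the layer types there. Grin2a differed by -0.48 in L2/3 IT, -0.42 in L4/5 IT, -0.40 in L6 IT, -0.38 in claustrum-like, -0.35 in L6 CT and -0.28 in L5/6 NP neurons. None of these passed 0.5 in size. Over all 14 glutamatergic clusters, which include those given no layer type, Grin2a ran from -0.78 to 0.22 and Grin2b from -0.57 to 0.01. The highest value of either was in a cluster of 84 nuclei, led by Sim1 and Dach2.

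The differences of Grin3a varied between the layer types. In L2/3 IT neurons its scaled CPM were 22.8 and 24.8 in the saline lanes against 14.2 and 12.1 in those of risperidone, a log2 difference of -0.88 (-1.02 to -0.73). It was called lower there (background 6.94%), in L4/5 IT neurons with -0.86 (6.02%), in L6 CT neurons with -0.96 (6.94%) and in L6 IT neurons with -0.62 (8.04%). RNA of other cells would give 95 to 121% of the Grin3a UMIs in L2/3 IT, 84.6 to 90.1% in L4/5 IT, 86.3 to 95% in L6 CT and 60.6 to 93.8% in L6 IT neurons, and no difference was computed there with it taken out. In the types where the level of Grin3a was higher it differed little, with 0.09 (-0.06 to 0.23) in L5 ET, 0.07 (-0.19 to 0.33) in L5/6 NP and 0.09 (-0.06 to 0.24) in claustrum-like neurons. No member was called lower in claustrum-like neurons, where the background was 9.17%. Striatal spiny projection neurons, which lie next to the dissected cortex, had 42.8 and 42.9 scaled CPM of Grin3a in the saline lanes against 12.9 and 8.86 in those of risperidone, a log2 difference of -2.03 that was called (background 8.96%). RNA of other cells would give 97.1%, 73.7%, 152% and 297% of these UMIs, so that Grin3a of the striatal neurons themselves cannot be told apart from it.

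**Figure D4:**
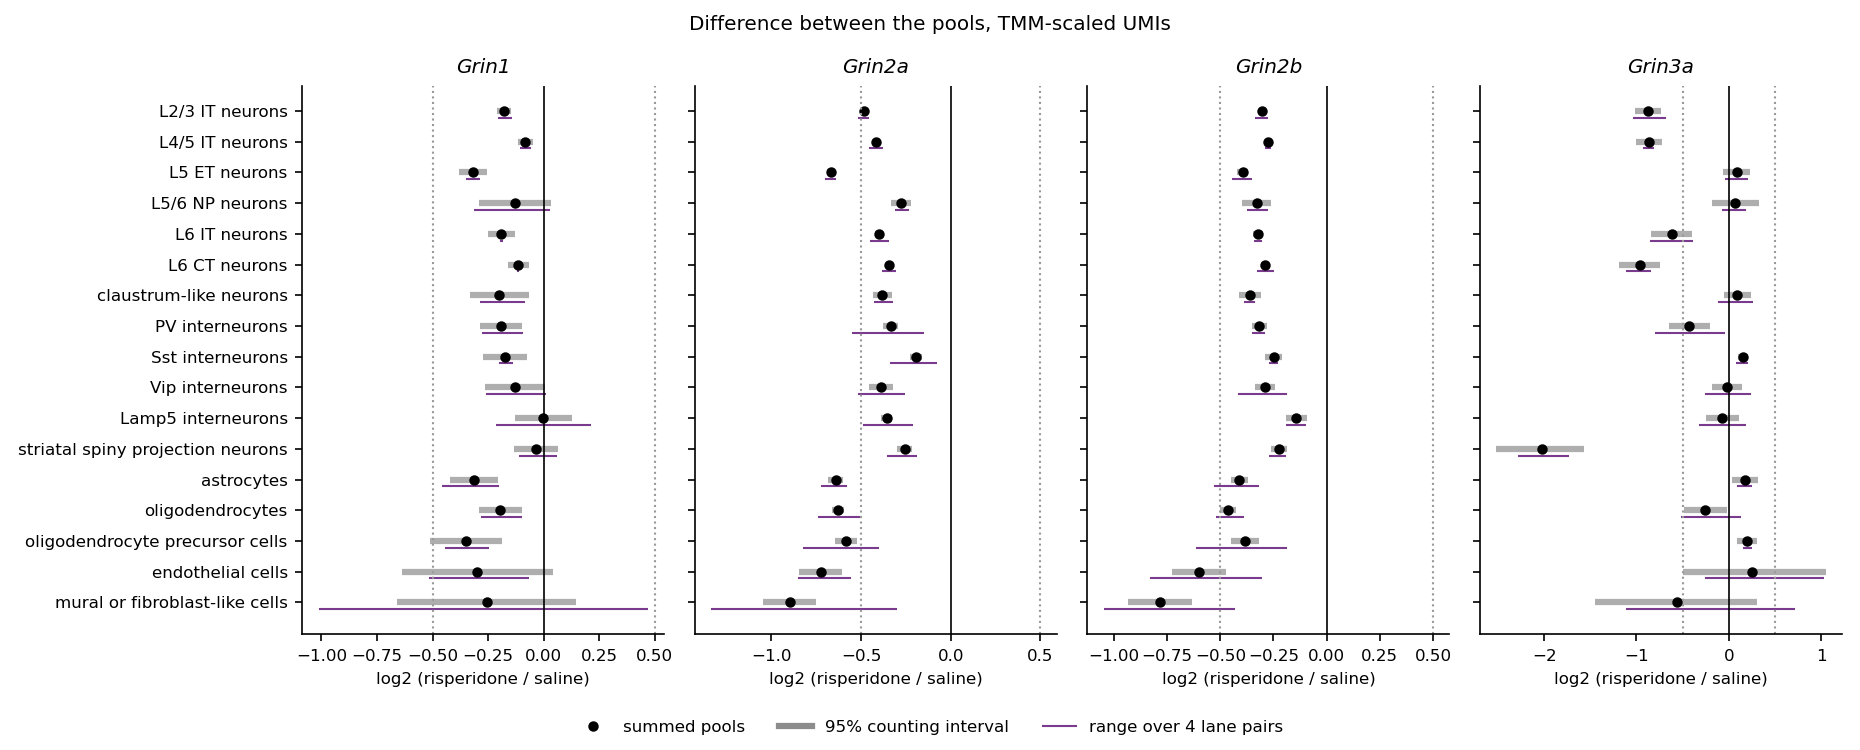
Log2 difference of risperidone over saline on the TMM-scaled values (x axis) for 4 members in 17 groups (y axis, microglia left out for their few nuclei), with the counting interval in grey and the range over the 4 lane pairs in purple. Grin2a and Grin2b are below 0 in all groups drawn, while Grin3a is below -0.5 in 4 layer types, striatal neurons and mural or fibroblast-like cells and near or above 0 in Sst-INs, L5 ET, L5/6 NP and claustrum-like neurons; dotted lines mark 0.5 in size.

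Over the neuronal types the log2 difference of Grin2a ran from -0.67 in L5 ET neurons to -0.19 in Sst-INs and that of Grin2b from -0.39 in L5 ET neurons to -0.14 in Lamp5 interneurons. Grin1 ran from -0.32 in L5 ET neurons to near 0 in Lamp5 interneurons. Outside the neurons Grin2a had -0.64 in astrocytes, -0.63 in oligodendrocytes and -0.58 in oligodendrocyte precursor cells. It had -0.73 in endothelial cells, -0.90 in mural or fibroblast-like cells and -0.55 in microglia. Each of these was larger in size than the -0.48 of glutamatergic neurons. However, RNA of other cells would give 102 to 201% of the Grin2a UMIs in endothelial cells and 103 to 131% in mural or fibroblast-like cells. It would give 40.4 to 101% in microglia, which had 13 and 10 nuclei in the saline lanes. In these groups no difference of Grin2a was computed with it taken out, and Grin2a of the cells themselves cannot be told apart from it. Grin3a had counting intervals above 0 in 3 groups. These were Sst-INs, astrocytes with 0.17 (0.03 to 0.32) and oligodendrocyte precursor cells with 0.20 (0.09 to 0.31), in which the scaled CPM were 384, 403, 447 and 458. With RNA of other cells taken out, Grin3a had 0.42 in astrocytes and 0.08 in oligodendrocyte precursor cells. In the same setting Grin2a had -0.73 in L5 ET neurons and -0.02 in striatal neurons, and in Lamp5 interneurons Grin2b had -0.01 and Grin1 0.08. Grin2c in astrocytes had 243, 256, 247 and 234 scaled CPM and overlapping lanes. Its log2 difference of -0.06 (-0.15 to 0.03) turned to 0.04 on plain CPM and was -0.26 with RNA of other cells taken out. Such RNA would give 2.06 to 3.86% of these UMIs, so that the last value moved with the total of the class. Plain CPM moved the median of all genes by 0.08 in glutamatergic neurons, 0.11 in PV-INs and 0.11 in astrocytes, and the signs of Grin1 in Lamp5 interneurons and striatal neurons and of Grin3a in Vip interneurons, all near 0, also turned. As bulk sums of a class, these values do not tell less RNA per nucleus apart from fewer nuclei that carry it.

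The share of Grin2a in the pair was lower in both risperidone lanes than in both saline lanes in glutamatergic neurons, with 54.9% and 52.3% over the pools. The shift was seen in L5 ET neurons (59.3% against 54.6% over the pools), L2/3 IT neurons (53.3% and 53.7% against 50.4% and 50.4%) and L4/5 IT neurons (57.0% and 57.1% against 54.2% and 55.0%). L6 CT neurons, L6 IT neurons and Lamp5 interneurons also had both risperidone lanes below both saline lanes. So did glia, with 51.1% and 50.6% against 47.5% and 46.4% in astrocytes. Oligodendrocytes had 54.4% and 55.1% against 50.7% and 53.1%, and oligodendrocyte precursor cells 56.6% and 54.9% against 51.2% and 52.9%. RNA of other cells, described below, would give 97.4 to 105% of the Grin2a UMIs in astrocytes. It would give 75.1 to 83.5% in oligodendrocytes and 103 to 126% in their precursor cells. With it taken out the share was 4.56% in astrocytes and 54.8% in oligodendrocytes. Whether the shift was one of the glia themselves was not tested. The shift was not seen in L5/6 NP neurons, with 60.3% and 60.6% against 60.7% and 61.9%. In PV-INs, Sst-INs and claustrum-like neurons the lanes of the conditions overlapped.

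RNA of other cells moved with the conditions. Its share in a class was estimated from markers of other classes as 29.9% and 27.4% of the UMIs of glutamatergic neurons in the saline lanes against 19.5% and 18% in those of risperidone. It was 28.7%, 24.7%, 16.6% and 16.0% in PV-INs. Sst-INs had 28.6%, 27.0%, 16.3% and 19.2%. At the lane-wide level of Grin3a this RNA would give 61.7%, 58.1%, 51.6% and 47.4% of the Grin3a UMIs of glutamatergic neurons. It would give 11.7 to 25.2% in L5 ET neurons, 9.91 to 15.5% in oligodendrocyte precursor cells and 1.14 to 2.49% in Sst-INs. In the IT and CT layer types Grin3a of the cells themselves and Grin3a from other cells cannot be told apart at this level. The 8 Sst-IN markers, summed, had 235 and 242 CPM in glutamatergic neurons in the saline lanes against 213 in either risperidone lane.

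With the estimated RNA of other cells taken out, the log2 difference of Grin2a in glutamatergic neurons was -0.53, which was called, and that of Grin2b was -0.37, both larger in size, while that of Grin3a was -0.44 and no longer called. In PV-INs Grin2a had -0.06 and Grin2d -0.63. Such RNA would give 43.2% and 47.1% of the Grin2a UMIs of PV-INs in the saline lanes against 26.0% and 24.5% in those of risperidone. In Sst-INs Grin3a had -0.02 and Grin2a -0.11. The positive value of Grin3a in Sst-INs was thus not kept in this setting. Such RNA would give 1.14 to 2.49% of the Grin3a UMIs of Sst-INs and 3.87 to 5.72% of the Grin2d UMIs of PV-INs. The setting also takes it from the total of the class, by a larger part in the saline lanes. These 2 values thus moved with the total more than with the UMIs of the genes themselves. The mix of Sst-INs also differed, the cluster led by Lama4 and Unc13c, with 1230 CPM of Grin3a, having 35.5%, 35.2%, 48.1% and 47.7% of them and that led by Tacr1 and L3mbtl4, with 692 CPM, 24.9%, 24.7%, 16.9% and 15.2%. With clusters weighted equally Grin3a in Sst-INs had 0.11. The values given for other groups with RNA of other cells taken out kept the TMM factors of the full counts. On that scale Grin2a had -0.51, Grin2b -0.35 and Grin3a -0.41 in glutamatergic neurons, and Grin2d -0.65 in PV-INs.

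The mix of nuclei differed as well. A glutamatergic cluster led by Gm2115 and Stac, with the highest Grin2a level of the class (5482 CPM), made up 2.95% and 3.13% of the class in the saline lanes against 0.84% and 0.86% in those of risperidone. A cluster led by Glis3 and Tspan18, with 5097 CPM, had 1.96%, 2.02%, 1.35% and 1.15%. Larger shifts were those of L2/3 IT neurons (2876 CPM), with 21.7%, 21.6%, 31.1% and 31.1%, and of a cluster led by Gm13986 and Ndst4 (2471 CPM), with 12.2%, 13%, 5.36% and 5.03%. A cluster of low Grin2a (1776 CPM), led by Tshz2 and Itprid1, also made up less of the class in the risperidone lanes, with 7.60%, 6.77%, 3.86% and 4.61%. Within single clusters the Grin2a difference was negative in 13 of 14 glutamatergic and 17 of 17 GABAergic clusters, and that of Grin2b in 13 of 14 and 17 of 17. Grin3a was negative in 9 of 14 glutamatergic clusters, with values from -1.64 to 0.87, and in 6 of 17 GABAergic clusters. The other GABAergic cluster, of 39 nuclei, had 17 and 22 nuclei in the saline lanes and 0 in either risperidone lane, and so gave no ratio. With the named layer types alone, a choice made after the data had been seen, the log2 difference in glutamatergic neurons was -0.44 for Grin2a and -0.52 for Grin3a. With all clusters weighted equally Grin2a had -0.48 and Grin2b -0.34, while Grin3a turned to 0.10. The cluster led by Sim1 and Dach2 had 6 and 7 nuclei in the saline lanes against 32 and 39 in those of risperidone. It had the highest Grin3a level of the class (418 CPM), and 0 of its 4 measured members were negative. The part of this cluster in the turned sign was not tested.

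Gene length went along with the differences. In glutamatergic neurons the median log2 difference was 0.03 for 3553 genes under 50 kb and -0.20 for 331 genes of at least 400 kb, whose middle range (quartiles) was -0.38 to -0.03. Grin2a (-0.48) lay below that middle range and Grin2b (-0.33) within it. Grin3a (-0.56) lay below the quartiles of the 1087 genes of 100 to 200 kb (-0.28 to 0.12), and Grin1 (-0.14) lay within those of genes under 50 kb (-0.18 to 0.23). In PV-INs the median was -0.27 for the longest genes (quartiles -0.50 to -0.07) and in Sst-INs -0.19 (-0.35 to 0.02). Grin2a (-0.34 in PV-INs and -0.19 in Sst-INs) and Grin2b (-0.32 and -0.25) lay within these quartiles. The part of RNA of other cells, of the mix of clusters, of gene length and of depth in the differences was not tested.

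**Figure D5:**
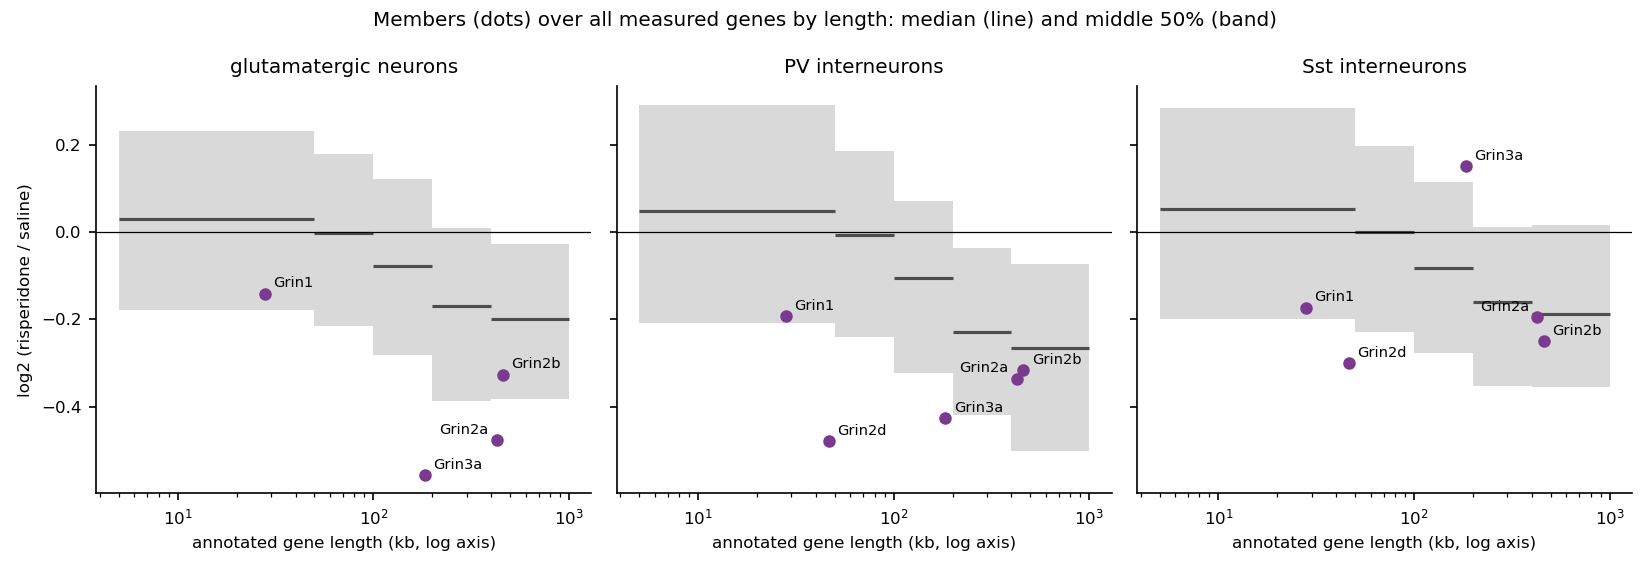
Log2 difference of risperidone over saline (y axis) against gene length in kb (x axis, log scale) in glutamatergic neurons, PV-INs and Sst-INs, with the median of all measured genes per length bin as a line, their middle 50% as a band and the members as points. The median declines from 0.03 to -0.20 with length in glutamatergic neurons, and Grin2a at -0.48 and Grin3a at -0.56 lie under the band of their bins.

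Nuclei were also separated by sex, from UMIs of Xist and of 4 genes of the Y chromosome. In glutamatergic neurons called female, Grin2a had 3475 and 3557 scaled CPM in the saline lanes against 2195 and 2265 in those of risperidone, a log2 difference of -0.66. In those called male it had 2909, 2960, 2459 and 2498, a difference of -0.24. Grin2b differed by -0.49 and -0.10, Grin3a by -0.51 and -0.61 and Grin1 by -0.10 and -0.21. Grin2a and Grin2b were thus lower in the risperidone lanes in both sexes, with the larger size in nuclei called female. For Grin1 and Grin3a the larger size was in nuclei called male, and whether the sexes differ was not tested. Nuclei called female were 37.8% and 39.9% of the class in the saline lanes against 55.0% and 54.0% in those of risperidone, and those called male 19%, 19.5%, 22.6% and 23.8%, with the rest undetermined. The part of depth and free RNA in these calls was not tested.

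The receptor works with scaffolds and enzymes of the postsynaptic density, with suppliers of its co-agonist and with other glutamate receptors, of which 59 partner genes in 6 groups were followed. In glutamatergic neurons 52 were measured, 38 had negative differences, 7 were called lower and 3 higher, with a median of -0.21. In PV-INs 17 of 53 were lower and 0 higher (median -0.32), and in Sst-INs 11 of 53 were lower and 1 higher (median -0.22). Over all genes 7.34%, 9.97% and 7.61% were lower in the same classes, 4.09%, 6.62% and 6.40% were higher, and 52.4%, 53.4% and 51.9% had negative differences. Of genes of at least 400 kb, 14.8%, 25.3% and 14.5% were lower, and the partners were not matched by length.

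The scaffolds, which tether the receptor at the synapse, were mixed in glutamatergic neurons. Of 15 measured, 11 were negative, where 52.4% of all genes and 78.2% of those of at least 400 kb were. Shank1 was called lower with 385 and 384 scaled CPM in the saline lanes against 233 and 238 in the risperidone lanes (-0.71), whereas Dlg1 (SAP97, 0.63) and Homer1 (0.77), which links the density to metabotropic receptors, were called higher. Dlg4 (PSD-95) had -0.40 there and was called lower in PV-INs and in Sst-INs with -0.67 in both. In PV-INs Shank1 (-0.73), Shank2 (-0.71) and Dlgap3 (-0.54) and in Sst-INs Shank1 (-0.67), Shank3 (-0.53) and Dlgap3 (-0.52) were also called lower.

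Of the enzymes downstream of the receptor, 16 were measured in glutamatergic neurons. Tiam1, an activator of Rac, was called lower (-0.54) and Cnksr2, a scaffold of Ras signalling, higher (0.62). In PV-INs 6 of 17 were called lower, among them Camk2a (-0.59), Camk2b (-0.55), Src (-0.79), Ptk2b (-1.56) and Kalrn (-0.52). In Sst-INs 4 of 17 were, namely Camk2a (-0.51), Camk2b (-0.55), Src (-0.83) and Ptk2b (-0.92). Camk2a and Ptk2b are genes of excitatory neurons, and Ptk2b is 1 of the 8 glutamatergic markers, whose sum in PV-INs was 641 and 565 CPM in the saline lanes against 235 and 227 in those of risperidone.

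Of the group of co-agonist supply and uptake, 1 of 4 measured was called lower in glutamatergic neurons and 2 of 5 in each of the interneuron classes, PV-INs and Sst-INs, with medians of -0.09, 0.06 and -0.22. The genes called were the glutamate transporters of astrocytes. Slc1a3 was called lower in glutamatergic neurons (-1.58), PV-INs (-1.67) and Sst-INs (-1.75). Slc1a2 was lower in PV-INs (-1.03) and Sst-INs (-1.0). Slc1a3 is 1 of the 8 astrocyte markers, whose sum in glutamatergic neurons was 445 and 442 CPM in the saline lanes against 344 and 337 in those of risperidone. Srr, the enzyme that makes D-serine, differed by 0.04 in glutamatergic neurons. Of the surface partners, Ephb2, a receptor tyrosine kinase that binds the NMDA receptor, was called lower in glutamatergic neurons (-0.62) and PV-INs (-0.65), and Grina was higher in Sst-INs (0.58).

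The other ionotropic receptors differed by family. Of the 4 AMPA receptor subunits, which carry the fast current, 0 were called in the 3 classes and their medians were 0.08, 0.05 and 0.08. Gria1, at -0.48, was the negative member in glutamatergic neurons and Gria2 had 0.23. Of the 7 kainate and delta receptor subunits, 7 were negative in glutamatergic neurons, where 52.4% of all genes and 78.2% of those of at least 400 kb were, with Grik3 (-0.82), Grik4 (-0.54) and Grik5 (-0.52) called lower. Grik3 (-0.72), Grik4 (-0.74), Grik5 (-0.60) and Grid1 (-0.53) were called lower in PV-INs and Grik4 (-0.87) in Sst-INs.

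For each member the genes with the most similar profile over the 18 groups were sought by Pearson correlation of log2(CPM + 1) in the summed saline lanes, among 11577 genes. The groups share lanes and RNA of other cells, so the coefficients only describe likeness. Grin1 was most like Ksr2 (r = 0.93, and 0.97 in the risperidone lanes), Grin2b (0.89 and 0.93) and Pacsin1 (0.89 and 0.93), and Grin2b was in turn most like Ksr2, Grin1 and Svop. Grin2a was most like Efna5 (0.80 and 0.76), Spock1 (0.78 and 0.80) and Ptchd1 (0.78 and 0.74). Grin2c went with Phkg1 (0.97 and 0.86), Gjb6, a connexin of astrocytes (0.95 and 0.82), and Plcd4 (0.95 and 0.93). Grin2d went with Dlx1as, the antisense gene of an interneuron homeobox gene (0.95 and 0.97), and Grip1os2 (0.94 and 0.73). Grin3a was near Prune2 (0.82 and 0.45), Chl1 (0.79 in both) and Elfn1, a marker of Sst-INs (0.78 in both).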

How the data were processed

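Nuclei were profiled on 4 Chromium lanes, 2 per condition, from 1 pool of cortex per condition. Reads were mapped by the authors in Cell Ranger 8.0.1, with introns, who deposited unnormalised UMI counts per gene and nucleus on mm10 (GRCm38). Nuclei under 500 genes or over 5% mitochondrial UMIs were left out and doublet-like nuclei removed by simulation (2 simulated doublets per nucleus, 0.4% per 1000 nuclei listed). The 2000 most variable genes without the members gave 30 principal components, 20 neighbours and Louvain clusters at resolution 0.5 (igraph 0.11.9, scikit-learn 1.9.0), which were named by marker lists with score thresholds set after the clusters had been seen. Counts were summed per lane and class and scaled with edgeR 4.0.16 (TMM). Calls needed a log2 difference of 0.5, a mean of 10 CPM and lanes apart. The script was tested on simulated data. RNA of other cells was estimated as the median, over markers of other classes, of the class level divided by that of the lane. Gene positions came from GENCODE on GRCm38, and 99.8% of identifiers matched. Named were all members, partners past the size rule, genes overlapping a member, and the 3 genes most like each member. Some genes that these rules name are not reported here. Other partners and the clusters described were named after their values were seen. Members and lists were chosen with earlier results of these data known. Alternatives covered scaling, minimum level, doublets, depth, other-cell RNA, clustering, sex and each lane left out. With 1 pool per condition no test was run, and intervals are exact at 95%.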

Additional observations from a re-analysis of the deposited data

Results flagged for a closer look

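Genes on the opposite strand of members were outside the comparisons above, and 3 of them had levels above those of the saline control lanes in glutamatergic neurons, with counting intervals above 0. All were under the minimum of 10 CPM used above. By the size rule 4.09% of the 7194 genes past that minimum were higher in this class. The share among genes under it was not counted, so these values are not shown to be particular to the members. Grin1os had 177 and 228 UMIs in the saline lanes against 663 and 744 in those of risperidone, a log2 difference of 1.25 (1.09 to 1.41). Gm14330, within Grin2b, had 101, 138, 897 and 1091 UMIs and a log2 difference of 2.51 (2.31 to 2.71). Gm14329, also within Grin2b, had 16, 10, 160 and 194 UMIs and a log2 difference of 3.22 (2.64 to 3.85). Their hosts Grin1 and Grin2b were lower in the same lanes, and a link between these differences was not tested. Per 1000 UMIs of Grin2b, Gm14330 had 0.62 and 0.68 UMIs in the saline lanes against 4.75 and 4.56 in those of risperidone. In PV-INs Gm14330 had 5, 2, 29 and 23 UMIs and a log2 difference of 2.59 (1.44 to 3.97), and in Sst-INs 5, 4, 37 and 23 UMIs and 2.44 (1.42 to 3.64). Of the other overlapping genes in glutamatergic neurons, Gm26653 had 0.17 (-0.19 to 0.54), Kdelr1 -0.10 (-0.21 to 0.02), Gm45441 -0.90 (-1.57 to -0.24) and Tmem259 -0.52 (-0.58 to -0.45). Median UMIs per kept nucleus were higher in the risperidone lanes, and their part in these differences was not tested.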

How the results depend on the processing

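In glutamatergic neurons 1 member was lower by the size rule, and 0 were on plain CPM, with a minimum of 50 CPM, with classes set nucleus by nucleus and with clusters weighted equally, against 2 with a minimum of 1 CPM (Grin2c and Grin3a) and in nuclei called female (Grin2a and Grin3a). With RNA of other cells taken out the count was 1, but the member was Grin2a (-0.53) and Grin3a (-0.44) was no longer called. Grin3a there turned from -0.56 to 0.10 with clusters weighted equally, a setting that gives a cluster of 84 nuclei the weight of any other. In PV-INs the count of 0 became 1 with RNA of other cells taken out (Grin2d) and 2 in nuclei called female (Grin2d and Grin3a). In Sst-INs the count became 1 with a minimum of 1 CPM (Grin2c). RNA of other cells would give 133 to 253% of the Grin2c UMIs in glutamatergic neurons and 82 to 183% in Sst-INs. Grin2c of these neurons thus cannot be told apart from it. Leaving out 1 lane gave counts of 1 to 2 in glutamatergic neurons and 0 to 2 in PV-INs. The Grin2a share of PV-INs, 45.2%, was 41.7% with RNA of other cells taken out and 49.6% with doublet-like nuclei kept. The cause of these shifts was not tested. No member was called higher in the 3 classes under any alternative. Grin2a and Grin2b stayed negative in all 3 classes under every alternative run. In PV-INs Grin3a ran from -0.76 in nuclei called female to 0.08 in those called male. No paired analysis was possible because each condition was 1 pool and no test was run. Grin3b in every group and Grin2c and Grin2d in glutamatergic neurons were under the minimum of 10 CPM.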
